A study of Mus musculus with 8 samples.

Results

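RNA levels were described for a run of neighbouring genes on mouse chromosome 8, from Ndrg4 to Pard6a, in wild-type (wt) and menin-null cells. The run holds 33 neighbouring genes, though not every gene between its ends, selected on their log2 signals in embryonic stem cells, where they had been noticed as higher in menin-null than in wt cells. Each gene was read from the probe set with the highest mean over all 8 arrays, and 32 of the 33 genes had a probe set annotated to that gene alone, out of 18193 genes measured. Cnot1, the scaffold of the CCR4-NOT deadenylase, has no value here because its 2 probe sets each carry 2 gene symbols. The study used Affymetrix Mouse Genome 430 2.0 arrays, 2 for each of 4 groups, hybridised with RNA from independent cultures. Wild-type mouse embryonic stem cells (mESCs) were of the line TC-1, and menin-null mESCs came from 3.2N, a Men1-ko line. Both lines are of 129S6/SvEvTac background, were kept on irradiated feeder fibroblasts and were made feeder-free before use. The other groups were pancreatic islet-like endocrine cells (PILECs) obtained from each line by differentiation in culture. Each genotype was 1 cell line, so that genotype and line cannot be told apart, and the tests see only how far cultures of a line vary. A value is a log2 signal throughout, and a difference of values is a log2 difference.

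Menin, the product of Men1, is a subunit of MLL1 and MLL2 complexes, which place trimethyl marks on lysine 4 of histone H3 at promoters. Genes that lie side by side in a mammalian genome are often unrelated in function and can still share promoters, when their start sites face away from each other on opposite strands, or a chromatin environment. The genes of this run are of that mixed kind. They include a chromatin architect (Ctcf), a transcription factor (E2f4), a partner of transcription factors (Cbfb) and an enzyme that prepares the protein tag NEDD8 (Nae1). Motor and cytoskeletal proteins and transporters are among them too.

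Promoter windows of 300 bases, from 250 before to 50 after an annotated start, were taken from RefSeq (assembly GRCm38.p6) and held 20 of the 33 genes, in 26 windows. The table used did not list E2f4, Tmem208, Rrad, Elmo3, Tppp3, Exoc3l, Fbxl8, Hsf4, Tradd, Hsd11b2, Dync1li2, Nol3 and Cnot1. In 3 places, a pair of neighbours on opposite strands had overlapping windows. The starts of Nae1 and Car7 were 63 bases apart and their windows overlapped by 162 bases. The starts of Fhod1 and Slc9a5 were 288 bases apart and their windows overlapped by 213 bases. The windows of Acd and Pard6a overlapped by up to 82 bases. One window of each pair is shown, together with those of Cbfb and Cmtm4, which rose in menin-null PILECs as Nae1 and Slc9a5 did. The sequences run 5′ to 3′ on the gene's strand, and capitals mark the GC box, GGGCGG or its reverse complement CCGCCC.
Nae1, chr8:104534588-104534887, minus strand: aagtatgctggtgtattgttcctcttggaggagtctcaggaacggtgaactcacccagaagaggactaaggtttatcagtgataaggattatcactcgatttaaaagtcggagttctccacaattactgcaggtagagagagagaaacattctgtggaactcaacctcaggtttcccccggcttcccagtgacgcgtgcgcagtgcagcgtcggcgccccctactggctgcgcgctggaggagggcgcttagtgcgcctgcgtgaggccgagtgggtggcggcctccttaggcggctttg
Slc9a5, chr8:105348008-105348307, plus strand: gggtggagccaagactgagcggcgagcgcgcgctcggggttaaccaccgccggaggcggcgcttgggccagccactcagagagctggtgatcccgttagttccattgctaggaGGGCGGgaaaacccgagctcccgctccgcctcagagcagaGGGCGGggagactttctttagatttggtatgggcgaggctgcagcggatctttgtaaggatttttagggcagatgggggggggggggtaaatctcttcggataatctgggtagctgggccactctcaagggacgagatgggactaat
Pard6a, chr8:105700898-105701197, plus strand: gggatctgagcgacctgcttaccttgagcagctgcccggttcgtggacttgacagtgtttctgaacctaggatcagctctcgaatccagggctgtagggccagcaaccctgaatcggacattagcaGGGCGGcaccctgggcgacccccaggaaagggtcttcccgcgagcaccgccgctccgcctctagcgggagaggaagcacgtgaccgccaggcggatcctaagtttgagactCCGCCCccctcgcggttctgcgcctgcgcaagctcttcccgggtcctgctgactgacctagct
Cbfb, chr8:105170424-105170723, plus strand: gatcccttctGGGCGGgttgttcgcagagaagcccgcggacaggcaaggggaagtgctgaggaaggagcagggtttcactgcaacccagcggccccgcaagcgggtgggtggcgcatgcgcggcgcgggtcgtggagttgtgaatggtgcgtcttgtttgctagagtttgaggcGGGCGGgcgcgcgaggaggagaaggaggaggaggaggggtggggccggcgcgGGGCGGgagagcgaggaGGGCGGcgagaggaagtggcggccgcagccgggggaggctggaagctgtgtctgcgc
Cmtm4, chr8:104395758-104396057, minus strand: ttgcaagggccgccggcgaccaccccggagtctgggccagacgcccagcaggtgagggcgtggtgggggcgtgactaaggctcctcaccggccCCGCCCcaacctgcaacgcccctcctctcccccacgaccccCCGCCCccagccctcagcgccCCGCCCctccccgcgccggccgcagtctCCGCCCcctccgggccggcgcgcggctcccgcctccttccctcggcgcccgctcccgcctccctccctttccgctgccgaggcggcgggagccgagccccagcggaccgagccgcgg

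The GC box stood on either strand in 18 of the 26 windows (69.2%), against 35.7% of all 32851 windows of that length. Of these 5 windows, those of Cbfb and Cmtm4 held 4 GC boxes each, those of Slc9a5 and Pard6a held 2 each, and that of Nae1 held 0. The windows of the run were rich in CpG, with a median of 23 per window against 7 over all windows. All windows, here and below, were taken whether or not their gene had signal on the arrays. A background of expressed genes alone was not made. Other motifs were searched on both strands, and none of them contains another. CCAAT was in 19.2% of the run's windows against 37.4% of all, the E-box CACGTG in 19.2% against 7.15%, TATAAA in 7.69% against 13.6%, the NRF1 palindrome in 3.85% (Cbfb alone) against 0.971%, and an E2F site, TTTCCCGC or TTTGGCGC, in 15.4% (Ciao2b, Fhod1, Slc9a5 and Atp6v0d1) against 1.56%. Overlapping windows share letters, and a match in shared bases was counted for each window. The E2F site and the GC boxes of the Slc9a5 window lie in bases shared with that of Fhod1. These matches are descriptions of the letters in the windows.

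The labels were checked first. Men1 read 9.90 and 9.97 in wt mESCs and 7.77 and 7.82 in menin-null mESCs, and 10.06 and 9.92 in wt PILECs against 7.95 and 8.02 in menin-null PILECs. It was low in all 4 menin-null arrays. The 6 embryonic stem cell markers stood at a log2 summed signal of 15.98 to 16.06 in mESCs, and at 13.25 to 13.40 in wt PILECs and 12.75 to 12.84 in menin-null PILECs, where 4 of the 6 were lower by the limma test. Of 7 islet markers measured, 3 (Gcg, Iapp and Pdx1) stayed under 7 in every group, and the summed islet signal was 10.72 to 11.03 in wt and 10.69 to 10.84 in menin-null PILECs, with 0 of 7 called and 3 at an unadjusted p under 0.05. PILECs carried strong signals of other cell types: the 4 neuron markers summed to 14.63 to 14.86 in PILECs, and the 6 fibroblast markers to 14.82 to 14.95 in wt and 14.47 to 14.85 in menin-null PILECs. Between the PILEC genotypes 0 neuron markers were called (limma, 0 at an unadjusted p under 0.05), and 1 fibroblast marker, Thy1, rose and 1 fell. The 4 striated muscle markers summed to 12.15 to 12.46 in wt PILECs and to 9.84 to 10.32 in menin-null PILECs, and all 4 fell. Of the endothelium and blood markers, 0 of 4 were called in either cell type (limma, 0 at an unadjusted p under 0.05), and 2 of 4 were under 7. In mESCs the neuron marker Tubb3, which lies on chromosome 8 itself, and the fibroblast marker Thy1 rose and 0 of the other markers were called by limma, where 2 more neuron markers (Map2 and Stmn2) and 1 islet marker (Neurod1) were at an unadjusted p under 0.05, while the fibroblast sum was 9.01 to 9.20 in wt and 9.08 to 9.26 in menin-null mESCs and the neuron sum 12.83 to 12.86 in wt and 13.21 to 13.22 in menin-null mESCs. These marker differences stand beside the mESC and PILEC results, their part in them was not tested, and in such bulk samples fewer cells of a type and less RNA per cell cannot be told apart.

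In mESCs the run was higher in menin-null cells, which is how it was noticed, so the mESC values are given as a description with no test. Over the 32 genes the median difference, menin-null minus wt, was 0.38, with a range from -0.12 to 0.74, and 29 of 32 were above 0. The arrays differed in size: relative to the wt mean of each gene, the median over the run was 0.33 on menin-null array 1 and 0.22 on menin-null array 2, against 0.02 and -0.02 on the wt arrays. Without menin-null array 1 the median difference was 0.22. In 25 of 32 genes both menin-null arrays stood above both wt arrays, as they did for 24.1% of all genes and 27.6% of expressed genes, meaning those with a mean log2 signal of at least 7 in at least 1 group. In 7 genes the groups overlapped, and in 0 genes were both menin-null arrays below, against 24.9% of all genes. The differences were uneven along the run. 9 genes differed by at least 0.5 and 15 by less than 0.25, and genes of both kinds lay side by side.

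**Figure D1:**
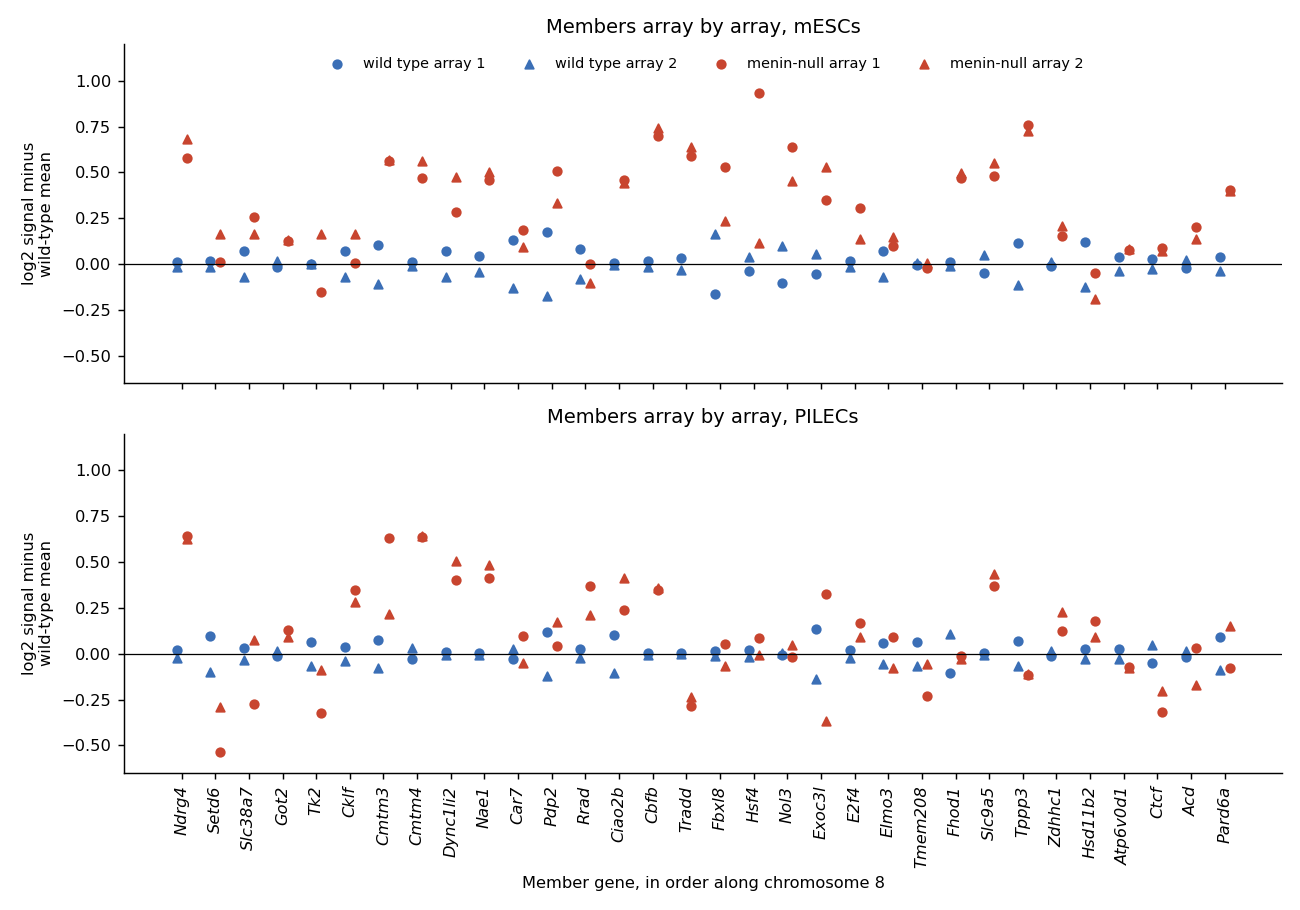
Log2 signal of each of the 32 measured genes on every array, minus the mean of the 2 wt arrays of the same cell type, in order along chromosome 8 (circles, array 1; triangles, array 2; blue, wt; red, menin-null). In mESCs (top) both red points lie above both blue points for 25 genes, and in PILECs (bottom) they do for 14 genes and lie below both for 6.

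Values just inside and outside the run describe its ends. Ndrg4, its first gene, differed by 0.63, and the 5 measured genes before it by 0.02 (Gins3, nearest), 0.10 (Prss54), -0.13 (Ccdc113), 0.12 (4933406B17Rik) and 0.01 (Csnk2a2). Pard6a, its last gene, differed by 0.40, and the 5 measured genes after it by 0.24 (Enkd1, nearest), 0.24 (4933405L10Rik), 0.21 (Gfod2), 0.24 (Ranbp10) and 0.06 (Tsnaxip1). Prss54, Ccdc113, 4933406B17Rik, 4933405L10Rik and Tsnaxip1 were under 7 in every group, so their differences say little about an edge. Among the 15 expressed genes before Ndrg4, with a median of 0.25, Kifc3 differed by 0.82, more than any gene of the run. The listed genes are not the whole interval. A further 26 measured genes lie between Ndrg4 and Pard6a, of which 9 were expressed, against 30 of the 32 listed genes. Their median difference in mESCs was 0.09, and both menin-null arrays were above both wt arrays in 9 of 26. Over the 9 expressed ones the median was 0.10, and the menin-null arrays were above in 5 (55.6%). This compares with 57.8% of the expressed chromosome 8 genes outside the interval. The highest of the 26 were Ripor1 (0.53), B3gnt9 (0.52) and D230025D16Rik (0.49), and the lowest were the cadherin gene Cdh8 (-0.27), Ces2b (-0.11) and Terb1 (-0.10).

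The run was not alone on its chromosome. Over the 619 expressed genes of chromosome 8 outside the interval the median difference in mESCs was 0.13, and both menin-null arrays were above both wt arrays in 57.8% of them, against -0.01 and 25.8% for the 11404 expressed genes of other chromosomes. Without the limit on expression the values were 0.10 and 46.8% for 882 genes, against 0.00 and 22.8% for 17253. With all its 658 expressed genes, chromosome 8 had the highest median of 20 chromosomes, 0.135. The next was chromosome 10 at 0.0316, and the lowest was chromosome 1 at -0.098. Split along its length into 10 blocks of neighbouring expressed genes, chromosome 8 had a median between 0.0945 and 0.18 in every block. The 15 expressed genes just before Ndrg4 had a median of 0.25 and the 15 just after Pard6a one of 0.16. The genes of the run were still high for chromosome 8. Of its 619 expressed genes outside the interval, 64 (10.3%) reached the run's median, as did 3.8% of expressed genes on other chromosomes. Since the run was picked for these values, this is a description too. In PILECs chromosome 8 did not stand out. Its median there was -0.0388, the rank was 4 of 20, and the blocks ranged from -0.141 to 0.0569.

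**Figure D2:**
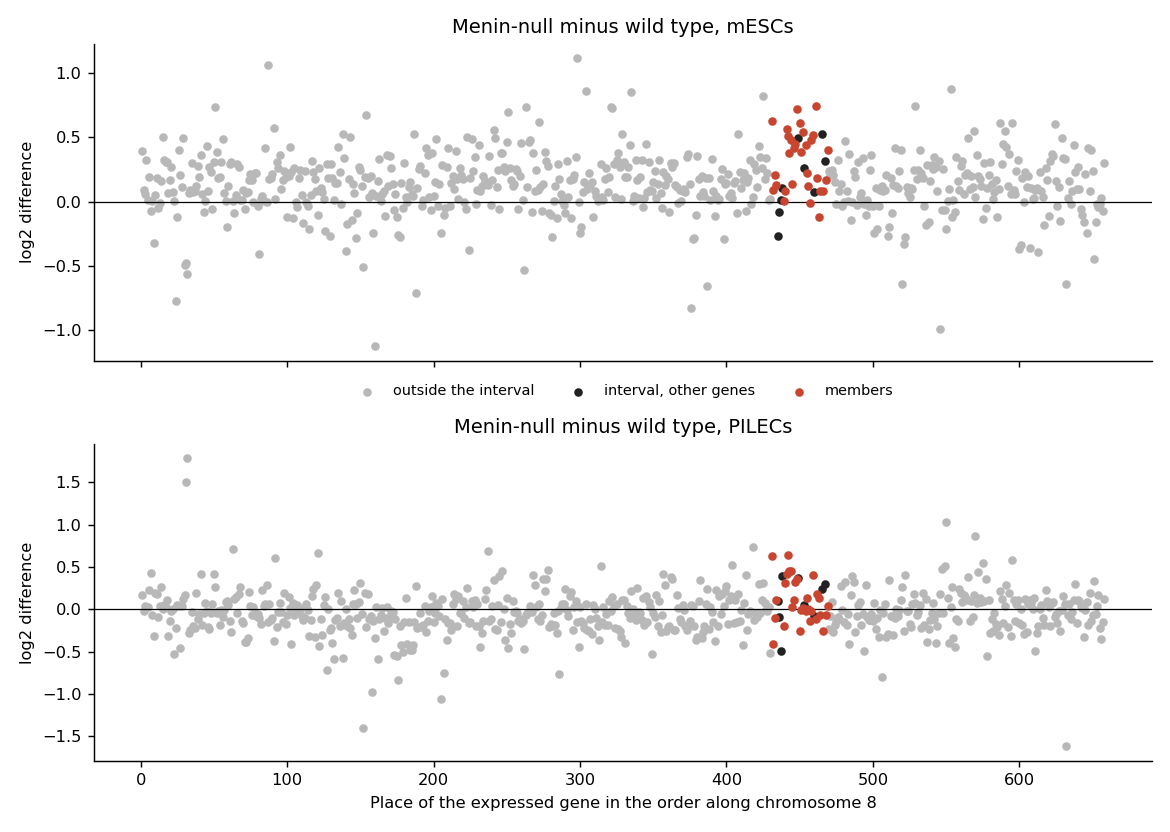
Menin-null minus wt log2 difference of the 658 expressed genes of chromosome 8, in order along the chromosome, in mESCs (top) and PILECs (bottom); red, genes of the run; black, other genes between Ndrg4 and Pard6a; grey, the rest of the chromosome. In mESCs the points of the whole chromosome lie mostly above 0. The run reaches 0.74, and genes outside the interval range from -1.13 to 1.11. In PILECs the median of the chromosome is -0.0388.

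**Figure D3:**
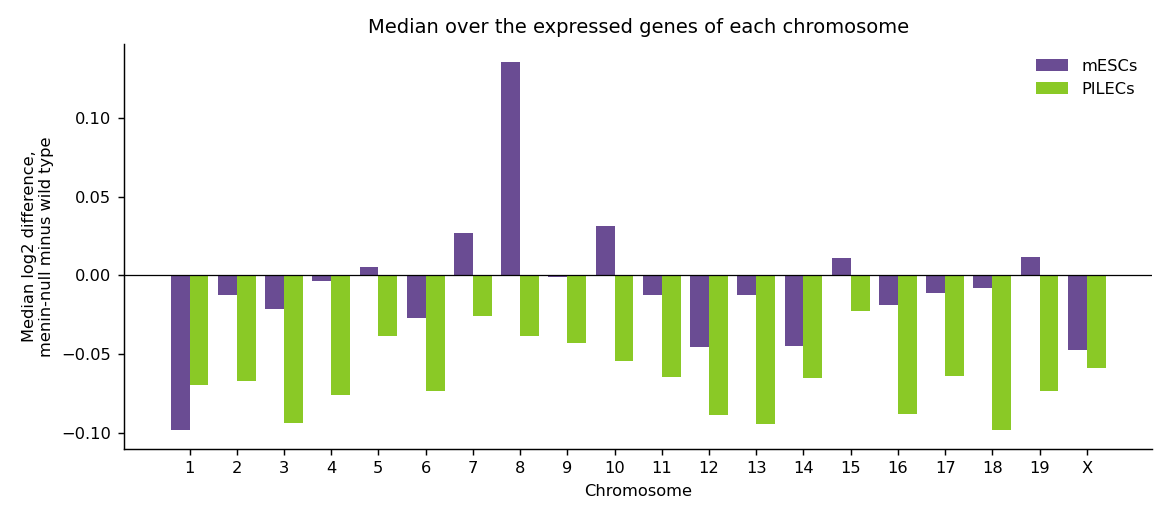
Median menin-null minus wt log2 difference over the expressed genes of each chromosome, in mESCs (purple) and PILECs (green); bars start at 0. Chromosome 8 stands at 0.135 in mESCs, above the 19 others, and at -0.0388 in PILECs, within their range.

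The PILEC arrays were not those in which the run was noticed, though its genes were listed with earlier results of these data known. Each PILEC group came from the same line as its mESCs, so the PILECs are no independent check on the lines. By the limma test over all 18193 genes, 6 of the 32 genes rose in menin-null PILECs and 0 fell, with 13 at an unadjusted p under 0.05, as were 23.3% of all genes. Over all genes 2.26% rose and 4.42% fell, and over expressed genes 3.08% rose and 6.23% fell. The 6 were Cmtm4, Ndrg4, Nae1, Slc9a5, Cbfb and Dync1li2, by 1.28- to 1.56-fold. In mESCs all 6 had both menin-null arrays above both wt arrays, as did 25 of the 32 genes. The mESC values picked the run, so nothing is read from this overlap. Both menin-null PILEC arrays were above both wt arrays in 14 of 32 genes, against 24.7% of all genes, and below in 6, against 30.0%. The median difference was 0.04, against -0.01 over all genes, and it was 0.03 to 0.11 when single arrays were left out. For the 30 expressed genes of the run it was 0.03, against -0.06 over all expressed genes. Over expressed genes of chromosome 8 outside the interval it was -0.04. The calls rest on few arrays: without either wt PILEC array 0 of the 32 passed, when Cmtm4 had an adjusted p of 0.0557 or 0.0537 and Ndrg4 one of 0.0509 or 0.0663. Without either menin-null PILEC array 2 genes passed, Cmtm4 and Ndrg4, and without either wt mESC array 3 passed, Nae1 with them.

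The genes with a PILEC difference were unevenly placed. From Cmtm3 to Cbfb, 9 of 9 genes were above 0 in PILECs, with a median of 0.35, and 4 of the 6 that rose lie there. From Tradd to Pard6a, the median over 17 genes was -0.01, although their mESC median was 0.38. These stretches were set after the values were known. 11 genes had both menin-null arrays above both wt arrays in both cell types, against 6.47% of all genes, and 4 (Tradd, Tppp3, Atp6v0d1 and Ctcf) had them above in mESCs and below in PILECs, against 6.58%. The mESC part of both counts is what picked the run, so nothing is read from them. Whether the difference itself differs between the cell types was not tested, since it contains the mESC contrast that chose the run.

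**Figure D4:**
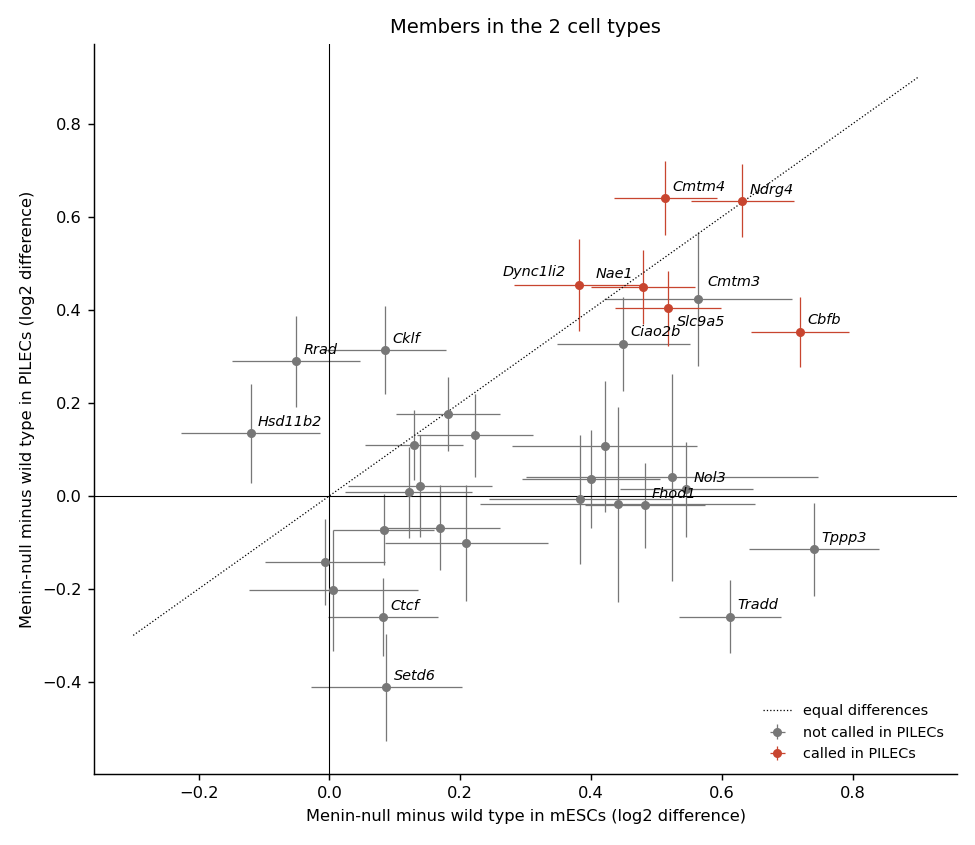
Menin-null minus wt log2 difference of the 32 genes in mESCs (horizontal) and PILECs (vertical), with the limma standard error as bars; red, the 6 genes that rose in PILECs; the dotted line marks equal differences. The red points lie between 0.38 and 0.72 in mESCs and between 0.35 and 0.64 in PILECs, whereas Tradd (0.61) and Tppp3 (0.74) are among the highest in mESCs and lie below 0 in PILECs.

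By role, genes of signalling, protein tagging and cell death numbered 9, with a median mESC difference of 0.51. They held 3 of the 6 genes that rose in PILECs. Ndrg4, a cytoplasmic protein of the NDRG family known from brain and heart, read 9.66 and 9.63 in wt and 10.22 and 10.32 in menin-null mESCs, and 12.79 and 12.75 in wt and 13.41 and 13.40 in menin-null PILECs. In neither cell type did the genotypes overlap. Its difference was 0.63 in mESCs and 0.63 in PILECs (SE 0.0785, 1.55-fold, limma adjusted p = 0.00568), and another Ndrg4 probe set gave 0.58 and 0.64. Cmtm4, a membrane protein of the CKLF-like MARVEL family that stabilises PD-L1 together with Cmtm6, read 10.59 and 10.56 in wt and 11.04 and 11.14 in menin-null mESCs, and 10.34 and 10.40 in wt and 11.01 and 11.01 in menin-null PILECs. The menin-null arrays were again the higher in both cell types, and the PILEC difference was 0.64 (SE 0.0786, 1.56-fold, limma adjusted p = 0.00544). Nae1, which with Uba3 forms the enzyme that activates NEDD8, read 11.72 and 11.63 in wt and 12.13 and 12.17 in menin-null mESCs, and 11.34 and 11.33 in wt and 11.75 and 11.82 in menin-null PILECs. It rose by 0.45 in PILECs (SE 0.0794, 1.36-fold, limma adjusted p = 0.0204). Car7, whose promoter window overlaps that of Nae1, gave 0.02 there. Its values were near 7 in all groups, so this says little about the bases they share.

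Cmtm3, of the same family as Cmtm4, read 7.53 and 7.31 in wt and 7.98 and 7.98 in menin-null mESCs, and 9.38 and 9.23 in wt and 9.93 and 9.52 in menin-null PILECs. Its genotypes did not overlap either, but the PILEC difference of 0.42 (SE 0.144) did not pass (limma adjusted p = 0.129), with 1 menin-null array well above the other. Tradd, an adaptor of the TNF receptor, read 8.36 and 8.29 in wt and 8.91 and 8.96 in menin-null mESCs, and 8.87 and 8.87 in wt and 8.59 and 8.64 in menin-null PILECs. The menin-null arrays were the higher in mESCs and the lower in PILECs, by 0.61 and by -0.26 (limma adjusted p for PILECs 0.0932), and the other Tradd probe sets had the same signs. Nol3, an inhibitor of apoptosis with a caspase recruitment domain, read 7.20 and 7.41 in wt and 7.94 and 7.76 in menin-null mESCs, and between 6.80 and 6.86 on all 4 PILEC arrays. Rrad, a small GTPase that restrains calcium channels, was under 7 on every array, at 6.79 and 6.63 in wt and 6.71 and 6.61 in menin-null mESCs and at 6.03, 5.98, 6.37 and 6.21 in PILECs. Of the other members of the group, Cklf, the family's founding chemokine-like factor, differed by 0.08 in mESCs and 0.31 in PILECs (limma adjusted p = 0.0962), and Fbxl8, an F-box protein, by 0.38 and -0.01.

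Gene regulators numbered 6 with a value, with a median mESC difference of 0.20, and 1 of them rose in PILECs. Cbfb, the partner that stabilises RUNX factors on DNA, read 11.89 and 11.85 in wt and 12.57 and 12.61 in menin-null mESCs, and 11.45 and 11.44 in wt and 11.79 and 11.80 in menin-null PILECs. The replicates lay close together and the genotypes apart in both cell types. The difference was 0.72 in mESCs, below that of Tppp3 alone, and 0.35 in PILECs (SE 0.0748, 1.28-fold, limma adjusted p = 0.0347). Hsf4, a heat shock factor known from the lens, read 6.00 and 6.08 in wt and 6.97 and 6.15 in menin-null mESCs and between 6.04 and 6.15 in PILECs. It was under 7 throughout, and its mESC difference of 0.52 comes from 1 array. Setd6, a lysine methyltransferase of RelA, read 10.36 and 10.33 in wt and 10.36 and 10.51 in menin-null mESCs, and 8.19 and 7.99 in wt and 7.55 and 7.80 in menin-null PILECs. It overlapped between genotypes in mESCs and was the lowest gene of the run in PILECs (-0.41, limma adjusted p = 0.0801). Its other probe sets gave -0.23 and 0.10 there, and the mean of its probe sets -0.18, above the values of Tradd, Ctcf and Tk2 read in that way. E2f4, a repressor-type E2F that acts with pocket proteins, read 9.77 and 9.73 in wt and 10.06 and 9.88 in menin-null mESCs, and 8.35 and 8.31 in wt and 8.50 and 8.42 in menin-null PILECs. Ctcf, the DNA-binding factor of chromatin loops, read 11.10 and 11.05 in wt and 11.16 and 11.15 in menin-null mESCs, and 10.10 and 10.20 in wt and 9.83 and 9.94 in menin-null PILECs. E2f4 was slightly higher in menin-null cells of both types, and Ctcf slightly higher in mESCs and lower in PILECs; neither passed in PILECs (limma adjusted p = 0.433 and 0.114). Acd, the shelterin subunit TPP1, gave 0.17 in mESCs and -0.07 in PILECs.

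Genes of mitochondria, metabolism and transport numbered 9, with a median mESC difference of 0.14. Slc9a5, a sodium-proton exchanger, read 7.78 and 7.87 in wt and 8.31 and 8.38 in menin-null mESCs, and 8.66 and 8.65 in wt and 9.02 and 9.09 in menin-null PILECs. It was the member of this group that rose in PILECs (0.40, SE 0.081, 1.32-fold, limma adjusted p = 0.0298). Fhod1, whose start faces away from that of Slc9a5, gave -0.02 there. Hsd11b2, which inactivates glucocorticoids, read 7.16 and 6.92 in wt and 6.99 and 6.85 in menin-null mESCs, and 6.78 and 6.72 in wt and 6.93 and 6.84 in menin-null PILECs. Its values were near 7 in all groups, and it had the lowest mESC difference of the run, -0.12. The other 7 were Slc38a7 (a glutamine transporter), Got2 (mitochondrial aspartate aminotransferase), Tk2 (mitochondrial thymidine kinase), Ciao2b (cytosolic iron-sulphur assembly), Car7 (a carbonic anhydrase), Pdp2 (a pyruvate dehydrogenase phosphatase) and Atp6v0d1 (a subunit of the V-ATPase). Their mESC differences ran from 0.01 (Tk2) to 0.45 (Ciao2b) and their PILEC differences from -0.20 (Tk2) to 0.33 (Ciao2b), and 0 of these 7 passed in PILECs. Ciao2b was closest, with a limma adjusted p of 0.101.

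Cytoskeleton, traffic and polarity had 8 genes, with a median mESC difference of 0.39. Tppp3, a microtubule-bundling protein of the tubulin polymerisation-promoting family, had the highest mESC difference of the run and read 7.93 and 7.70 in wt and 8.57 and 8.54 in menin-null mESCs, and 9.26 and 9.12 in wt and 9.07 and 9.08 in menin-null PILECs. The menin-null arrays were the higher in mESCs, by 0.74, and slightly the lower in PILECs (-0.12, SE 0.0999, limma adjusted p = 0.550). Dync1li2, a light intermediate chain of cytoplasmic dynein, read 10.05 and 9.91 in wt and 10.27 and 10.46 in menin-null mESCs, and 11.82 and 11.81 in wt and 12.22 and 12.32 in menin-null PILECs. The genotypes were apart in both cell types, the PILEC difference was 0.45 (SE 0.0983, 1.37-fold, limma adjusted p = 0.0368), and another probe set gave 0.59 in mESCs and 0.56 in PILECs. Fhod1, a formin that assembles actin, read 8.44 and 8.42 in wt and 8.90 and 8.93 in menin-null mESCs, and 7.69 and 7.90 in wt and 7.79 and 7.76 in menin-null PILECs. Its genotypes were apart in mESCs and overlapped in PILECs.

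Exoc3l, named for its likeness to an exocyst subunit, read 8.26 and 8.36 in wt and 8.66 and 8.84 in menin-null mESCs, and 5.74 and 5.47 in wt and 5.93 and 5.24 in menin-null PILECs. Elmo3, of a family of adaptors for Rac activation, read 7.55 and 7.41 in wt and 7.58 and 7.63 in menin-null mESCs, and 5.68 and 5.56 in wt and 5.71 and 5.54 in menin-null PILECs. Both were under 7 in PILECs, where the genotypes overlapped. Tmem208, an endoplasmic reticulum membrane protein, read 10.77 and 10.78 in wt and 10.76 and 10.78 in menin-null mESCs, and 10.38 and 10.26 in wt and 10.09 and 10.26 in menin-null PILECs. Its mESC difference was -0.01, although Fhod1 and Slc9a5, the next listed genes, differed by 0.48 and 0.52. Zdhhc1, of the palmitoyltransferase family, differed by 0.18 in both cell types, and Pard6a, a subunit of the Par polarity complex, by 0.40 in mESCs and 0.04 in PILECs.

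On differentiation the run did not move as 1 unit. In PILECs minus mESCs, averaged over both genotypes, a contrast that does not draw on the mESC genotype difference, 22 of the 32 genes changed by the limma test, 9 up and 13 down. Over all genes 31.6% rose and 40.0% fell, or 71.6% together, so the run's share was near the background. The order of size was Ndrg4 (3.13, 8.74-fold up), Exoc3l (-2.94, 7.66-fold down), Setd6 (-2.51, 5.69-fold down), Elmo3 (-1.92, 3.78-fold down), Dync1li2 (1.87, 3.65-fold up), Cmtm3 (1.81, 3.51-fold up), E2f4 (-1.46, 2.76-fold down), Ctcf (-1.10, 2.14-fold down), Tppp3 (0.95, 1.93-fold up) and Fhod1 (-0.89, 1.85-fold down). In each of these 10 the 4 PILEC arrays and the 4 mESC arrays, given above, did not overlap, and the limma adjusted p ran from 3e-09 (Ndrg4) to 4.25e-06 (Tppp3). Ndrg4 and Setd6, which lie at the start of the run, thus moved in opposite directions.

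By role, gene regulators gave 1 up (Acd) and 4 down (Setd6, Cbfb, E2f4 and Ctcf), the signalling group 2 up and 4 down, the mitochondrial and transport group 2 up (Slc9a5 and Atp6v0d1) and 1 down (Got2), and the cytoskeletal group 4 up and 4 down. The sign was the same in both genotypes for 28 of 32 genes. The size could still differ: Tppp3 was higher in PILECs by 1.38 in wt and by 0.52 in menin-null cells, and Tradd by 0.54 in wt and -0.33 in menin-null cells, values that share the mESC arrays used to pick the run. The smallest call, the fall of Cmtm4 (-0.14, limma adjusted p = 0.0464), lost its call without 7 of the 8 single arrays, where its value was -0.12 to -0.16. It had the opposite sign after quantile normalisation.

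**Figure D5:**
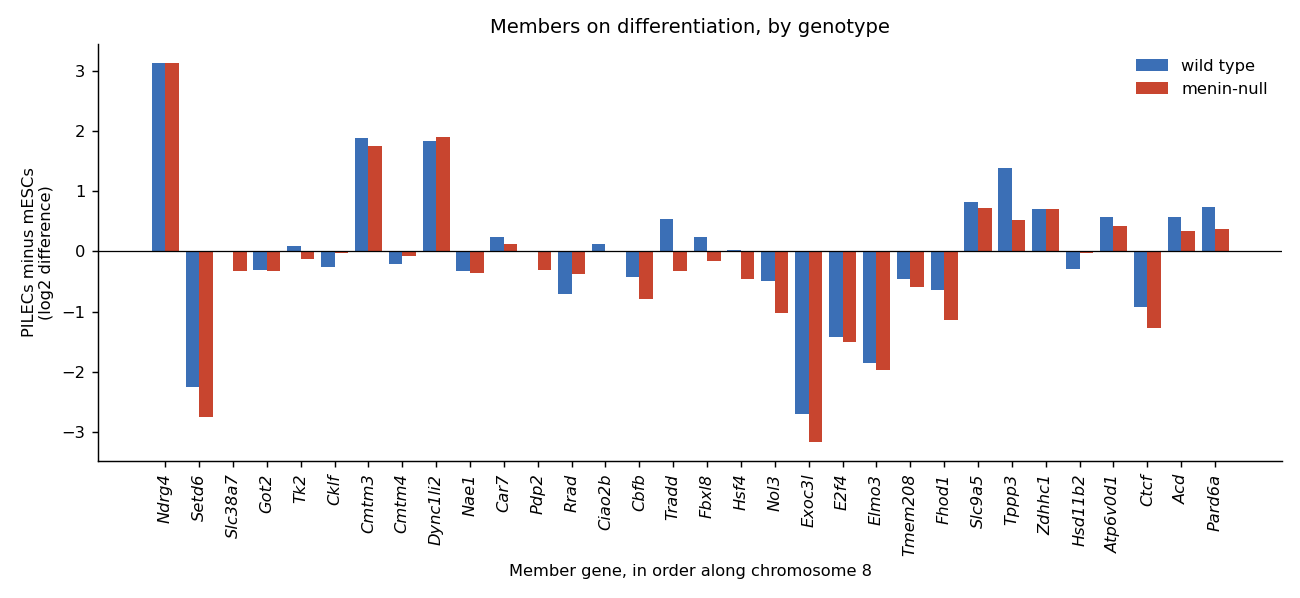
PILEC minus mESC log2 difference of each gene of the run, in order along chromosome 8, for wt (blue) and menin-null (red) cells; bars start at 0 and show the difference of group means of 2 arrays each. The run holds both rises, such as Ndrg4 (3.13 over both genotypes), and falls, such as Exoc3l (-2.94).

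Genes that work with members of the run, but are encoded apart from it except for Cmtm2a, were read in 14 lists. 110 of their 114 genes were measured, and 9 of these lie on chromosome 8. In mESCs 0 of 110 rose and 2 fell by the limma test, with 25 at an unadjusted p under 0.05. Of all genes 1.29% rose and 2.36% fell, and 18.5% were at an unadjusted p under 0.05. The 2 that fell are named as values and not as a result about the partners. Dync1h1, the heavy chain of cytoplasmic dynein, fell by 0.66 on the log2 scale (SE 0.0772, 1.58-fold, limma adjusted p = 0.00705), in the complex whose light intermediate chain Dync1li2 was higher. The value was -0.29 with all its probe sets averaged, which did not pass. Dync1h1 lies on chromosome 12. The paper reports lower RNA in menin-null mESCs for genes of the Dlk1-Meg3 locus, which is on the same chromosome. Whether the fall of Dync1h1 goes with that locus or with dynein was not tested. Slc25a11, the oxoglutarate carrier of the malate-aspartate shuttle, fell by 0.47 on the log2 scale (SE 0.0823, 1.38-fold, limma adjusted p = 0.0260). Neither passed when either wt mESC array was left out (adjusted p = 0.0806 and 0.0719 for Dync1h1, 0.198 and 0.167 for Slc25a11).

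In menin-null PILECs 3 of the 110 partner genes rose and 6 fell, with 28 at an unadjusted p under 0.05. These shares are near those of all genes (2.26% up, 4.42% down and 23.3%), so the genes are named as values and not as a result about the partners. Those that rose were the dynein intermediate chain Dync1i1 (0.37, limma adjusted p = 0.0354), the V-ATPase subunit Atp6v0a1 (0.44, 0.0299) and the atypical protein kinase C Prkcz of the Par complex (0.44, 0.0410). Those that fell were the atypical E2F factor E2f7 (-0.66, 0.0125), the pocket protein Rbl1 (-0.61, 0.0222), the NEDD8-conjugating enzyme Ube2f (-0.48, 0.0195), the TNF receptor adaptor Traf2 (-0.42, 0.0412), the pyruvate dehydrogenase kinase Pdk3 (-0.47, 0.0326) and the dehydrogenase subunit Dld (-0.44, 0.0438). The count of 9 fell to 1 without wt PILEC array 1 and to 0 without wt PILEC array 2. It was 1 without either menin-null PILEC array and 3 without either wt mESC array.

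By list, with counts too small to set against those shares, the E2F and pocket proteins gave 0 up and 2 down of 17, pyruvate dehydrogenase regulators 0 and 2 of 9, NEDD8 conjugation 0 and 1 of 6, TNF receptor signalling 0 and 1 of 5, the Par complex 1 and 0 of 7, the V-ATPase 1 and 0 of 15, and cytoplasmic dynein 1 and 0 of 8 in PILECs. In mESCs dynein and the malate-aspartate shuttle (6 genes) gave 1 down each. The CCR4-NOT complex (10 genes), RUNX factors (2), cohesin (9), shelterin (6), cytosolic iron-sulphur assembly (5) and the other CMTM genes (5) had 0 genes called in either cell type, with 1, 0, 1, 1, 2 and 0 genes at an unadjusted p under 0.05 in mESCs and 4, 0, 3, 2, 0 and 0 in PILECs. Their list medians lay between -0.05 and 0.11 in mESCs and between -0.14 and 0.18 in PILECs. Uba3, the partner of Nae1 in the NEDD8-activating enzyme, differed by 0.34 in mESCs (limma adjusted p = 0.0560) and by -0.17 in PILECs (0.243), and neither passed.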

How the data were processed

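Each sample was 1 array, hybridised with biotin-labelled cRNA made from 6 µg of total RNA. The deposited table holds 1 log2 value per probe set and array, from 3.26 to 15.2. Per the submitters' processing notes, RMA and Partek were used, and the study's methods name the Microarray Analysis Suite 5.0; which of them made the log2 values cannot be told apart here, and versions and the annotation's genome build are not given in the sources used here. The number of arrays limits the precision.

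Of 45101 probe sets, 64 controls, 9160 without a symbol and 932 with several symbols were left out. For each of 18193 genes the probe set with the brightest average was kept. Gene names and order came from the RefSeq table of GRCm38.p6. The 8 arrays were fitted jointly, 1 mean per group, with limma (version 3.58.1, R version 4.3.3; 4 residual and 3.72 prior degrees of freedom), and p-values were adjusted over all genes by the Benjamini-Hochberg method at a threshold of 0.05. Folds are 2 to the power of the log2 difference. The script was tested on simulated data. A mean of 7 as the limit of expression is a round setting, not a measured background.

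The genes of the run, the partner and marker lists and the rules were chosen with earlier results of these data known. Single-array values were given for the 10 genes highest and the 3 lowest in menin-null mESCs, those that passed in PILECs, and the 10 that changed most on differentiation. The other genes are given by counts and ranges. Groups and replicate numbers came from the sample titles. Alternatives were quantile normalisation, median centring, expressed genes only, no probe sets ending in _s_at, _x_at or _a_at, the mean of all probe sets, a replicate block, each array left out, no variance moderation, arrays of 1 cell type only, and the threshold of the study (unadjusted p under 0.005 and a change of 2-fold or more).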

Additional observations from a re-analysis of the deposited data

Results flagged for a closer look

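For 4 genes of the run, both menin-null arrays lay above both wt arrays in mESCs and below both in PILECs, so that each group of arrays moved a different way. The same pattern was seen in 6.58% of all genes, and the mESC part of it is what picked the run. Tradd differed by 0.61 in mESCs and -0.26 in PILECs. Tppp3 differed by 0.74 and -0.12, Ctcf by 0.081 and -0.26, and Atp6v0d1 by 0.083 and -0.073. The difference between the cell types was not tested for these genes, and 0 of the 4 passed the limma test in PILECs, where Tradd and Ctcf were at an unadjusted p under 0.05.

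Dync1h1, a partner gene that had no part in the choice of the run, fell in menin-null mESCs. The difference between its menin-null effects, PILECs minus mESCs, was 0.56 (limma interaction, adjusted p = 0.0417). It is 1 of 110 partner genes measured, and the share of all genes passing this interaction is not given. The mESC fall of Dync1h1 did not pass without either wt mESC array or with its probe sets averaged.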

How the results depend on the processing

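The median mESC difference of the run (0.38) was 0.28 with all probe sets of a gene averaged and 0.22 to 0.38 with single arrays left out. The count of genes with separate higher arrays (25) was 22 to 29 under every alternative run. The counts of 28 and 29 came without wt and menin-null mESC array 1, respectively, where fewer arrays had to be separate. No share over all genes is given for them. The 22 came without probe sets ending in _s_at, _x_at or _a_at, where some genes had no value. The median PILEC difference (0.04) was 0.019 after median centring and 0.029 over expressed genes only. It was 0.072 after quantile normalisation and 0.034 to 0.11 with single arrays left out. The replicate numbers do not pair the cultures (correlations of deviations from -0.277 to 0.209), and with the replicate block 3 genes of the run passed in PILECs in place of 6, as did 1 partner gene in mESCs in place of 2 and 3 in PILECs in place of 9; with numbers crossed between genotypes, an alternative chosen after seeing the data, 7 genes of the run passed, 6 up and 1 down. The PILEC count of 6 was 0 to 6 with single arrays left out and 0 at the threshold of the study, and 4 to 8 under the other alternatives. Among expressed genes only, Setd6 (adjusted p = 0.0481) and Tradd (0.0457) joined as falls. The differentiation count of 22 was 21 to 23 with single arrays left out and 8 at the threshold of the study. Partner genes in mESCs (2) numbered 7 among expressed genes only, 1 without moderation, 0 with mESC arrays only, 0 at the threshold of the study and 0 to 5 with single arrays left out. Partner genes in PILECs (9) numbered 14 among expressed genes only, 0 without moderation, 5 with PILEC arrays only, 0 at the threshold of the study and 0 to 10 with single arrays left out. Signs turned for the differentiation value of Cmtm4 after quantile normalisation (0.078), of Got2 (0.062), Cklf (0.39) and Car7 (-0.27) without probe sets ending in _s_at, _x_at or _a_at, and of Car7 with probe sets averaged (-0.17), and for the PILEC value of Ube2f without those probe sets (0.056). Where those probe sets were left out, another probe set stood for the gene if it had one. Ndrg4, Tk2, Cbfb, Hsf4, Zdhhc1 and Acd had none. They have no value under that setting and are missing from its counts, also from that of genes that rose in PILECs.

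With 2 cultures of 1 line per genotype, the precision is that of few arrays, and loss of menin cannot be told apart from other differences between the lines. Rrad and Hsf4 were under 7 in every group.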

Other observations

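Of the 20 further probe sets of 10 genes of the run, which share the arrays and so are no replicates, 18 had the same sign as the chosen one in mESCs and 17 in PILECs. With a mean of at least 7 there were 14, of which 13 and 13 agreed in sign. D230025D16Rik, a gene between Ndrg4 and Pard6a that is not listed in the run, rose in menin-null PILECs (0.37, limma adjusted p = 0.0350).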
